A study of Oncorhynchus mykiss with 72 samples.

Results

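Gill RNA of redband trout (Oncorhynchus mykiss) held at 28 °C was compared between day 7 and day 3 of the exposure, over the 18 libraries of that temperature and those days among the 72 libraries of the series. The 28 °C libraries of day 7 and day 3 came from 3 strains with 3 libraries per strain and day: Little Jacks (LJ, from a desert creek), the F1 cross of Little Jacks and Keithly (LJxK), and Keithly (K, from a montane creek). The 18 libraries of the same strains and days at 15 °C, the control temperature, served as the measure of change over those days without heat. The sources give no age for the fish, and every group is gill tissue of fish kept in tanks. The authors' library table states that each library pooled RNA of 3 fish samples from 1 rearing tank, so the p-values below measure the spread between such pools. The question of the comparison was how the transcript profile of the gill moved between the third and the seventh day under heat, in the 3 strains together and in each of them.

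The gill is the site of gas exchange, ion transport and nitrogen excretion in fish, and its epithelium is in direct contact with the warm water. In fish tissues, acute warming is known to raise transcripts of chaperones, which refold damaged proteins, and of the proteasome system, which removes them, and part of such a response is known to decline again as exposure continues. No gene name comes with the feature identifiers of the deposited tables, and a reference list of names shared 0 of the 25137 identifiers, so neither chaperones nor markers of gill cell types could be looked up and the tissue label could not be checked by markers. The features were therefore described by how they responded to heat on day 1 and on day 28, in libraries that do not enter the day 7 and day 3 comparison. In bulk tissue, fewer cells of a type and less RNA per cell cannot be told apart.

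The deposited value of a feature is its number of reads per effective size of the library, and each strain has its own table, so only changes within a strain enter. Reads recovered from the values ranged from 3.60 to 11.5 M (M, mega) per library on day 7 and from 3.49 to 13.1 M on day 3. Features with more than 3 reads numbered 22373 to 23217 per library on day 7 and 21469 to 23190 on day 3, of the 23234 features in all 3 tables. Rows without an identifier, 5408 in LJ, 5001 in LJxK and 4261 in K, were left out throughout. Shares of reads below are of the reads of the 23234 features, not of all matched reads. One library of the 18 stood apart, the LJ library of day 7 named replicate 3. Its 10 most abundant features held 27.5% of its reads, against 12.1% and 13.1% in the other LJ libraries of day 7, and its values summed to 1.52 M against 0.927 and 0.920 M. It is 1 of 7 libraries of the series that lay beyond the largest gap of the first component of within-group residuals, and each result below that turns on it is given with and without it.

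Between day 3 and day 7 at 28 °C, few features passed the test of a change, and more of those fell than rose. With the strains pooled, 83 features rose and 175 fell (limma on log2(value + 0.5), strain as a block, Benjamini-Hochberg adjusted p under 0.05, two-sided), which is 0.357% and 0.753% of the 23234 tested, or 1.11% together. The unadjusted p was under 0.05 for 3201 features. The median change of the features that rose was 0.85 on the log2 scale, and 26 of the 83 rose at least 2-fold. The median change of those that fell was -0.74, and 42 of the 175 fell at least 2-fold. Over all features the median change was 0.02, and the estimated change of 93.5% of them was under 1.5-fold. The values of all 3 day 7 libraries lay above those of all 3 day 3 libraries in every strain for 23 of the 83 features that rose, and below them for 76 of the 175 that fell, against 32 features (0.138%) and 109 features (0.469%) among all 23234. The called features were chosen on these same values, so their larger share without overlap is no separate support. Without the LJ library that stood apart, 128 features rose and 204 fell. The counts of all features without overlap in all 3 strains were then 51 above and 121 below. With fewer LJ libraries on day 7, a lack of overlap is also easier to reach. Leaving out the second LJxK library of day 7 gave the lowest count, 149, and leaving out the second LJ library of day 3 gave 161. With reads scaled to the column total 41 rose and 66 fell, and with that scaling and without the library that stood apart 207 rose and 136 fell, so the majority of falls did not hold there.

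At 15 °C fewer features passed the test over the same interval. Of the same 23234 features, 16 rose and 5 fell at 15 °C (0.0689% and 0.0215%, or 0.0904% together), and the median standard error of the change was 0.19 at 28 °C and 0.21 at 15 °C on the log2 scale. The 15 °C count was 44, 29 that rose and 15 that fell, without the first LJxK library of day 3, which held under 1 M reads, and it was 46 in edgeR and 444 with library weights in limma, against 217 and 695 at 28 °C in those fits. Of the features called at 28 °C, none of the 83 that rose and 2 of the 175 that fell were called at 15 °C, and the median change at 15 °C was 0.09 over those that rose under heat, -0.14 over those that fell and 0.05 over all features. The change at 28 °C minus the change at 15 °C passed the test for 34 features (0.146%), 11 with a higher (0.0473%) and 23 with a lower change under heat (0.0990%), and 2180 had an unadjusted p under 0.05. This count rested on single libraries. It ran from 5, without the second LJ or the first LJxK library of day 3 at 28 °C, to 126 without the third LJxK library of day 3 at 15 °C, and it moved by more than 1.5 times for 20 of the 36 libraries left out. With reads scaled to the column total it was 2, and without the libraries beyond the gap it was 36.

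The 4 features named here are the largest changes in each direction among those called with more than 3 reads in each of the 18 libraries and the same sign in every strain. Feature g28455 carries no gene name. In LJ it had deposited values of 19.8, 18.3 and 14.3 on day 7, against 2.22, 1.69 and 4.16 on day 3. In LJxK the values were 11.7, 24.7 and 21.6 on day 7, against 2.42, 4.01 and 6.79 on day 3. In K they were 14.7, 12.6 and 10.6 on day 7, against 3.52, 2.25 and 2.99 on day 3. In each strain the day 7 libraries thus lay above those of day 3. The pooled change was 2.19 on the log2 scale (SE 0.21, limma adjusted p = 8.7e-06). At 15 °C the 9 libraries of day 7 held 0.723 to 3.66 and those of day 3 held 0 to 2.67, and within each strain the day 3 libraries at 28 °C overlapped the 15 °C libraries and the day 7 libraries did not. The change at 28 °C minus that at 15 °C was 2.05 (SE 0.39, limma adjusted p = 0.032). On day 1 the feature was lower at 28 °C than at 15 °C, by a log2 difference of -0.78 (limma adjusted p = 0.037), and on day 28 it was higher, by 2.18 (limma adjusted p = 0.0044). Its estimates thus stood below the 15 °C level on day 1 and above it on day 28, but rested partly on very few reads. On day 1 the LJ libraries at 28 °C held 1, 0 and 0 reads. On day 28, 1 LJ library at 28 °C and 2 each of the LJxK and K libraries at 15 °C held 3 reads or fewer.

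Feature g17407 rose with a larger spread. Its values in LJ were 24.5, 20.2 and 19.7 on day 7, against 6.06, 1.69 and 7.06 on day 3. LJxK had 33.9, 71.5 and 5.00 on day 7, against 6.89, 15.0 and 3.54 on day 3, and K had 15.3, 109 and 31.6 on day 7, against 13.6, 2.57 and 6.57 on day 3. The days did not overlap in LJ and K, whereas in LJxK the third library of day 7 lay within the range of day 3. The pooled change was 2.11 (SE 0.46, limma adjusted p = 0.027), but the adjusted p ran from 0.0023 to 0.067 when each library was left out in turn and passed 0.05 without 9 of the 18. Heat lowered this feature on day 1, by a log2 difference of -2.13, and on day 28, by -4.52 (limma adjusted p = 0.00030 and 1.6e-08). Its 15 °C libraries held 29.9 to 196 on day 7 and 18.4 to 218 on day 3. In K it was also higher on day 7 at 15 °C without overlap. The values there were 161, 196 and 158 on day 7, against 43.4, 81.7 and 27.0 on day 3. In LJ and LJxK the days overlapped at 15 °C. Of the feature's 9 day 7 libraries at 28 °C, 6 lay within the 15 °C range of their own strain. On day 28 its libraries at 28 °C held 1.19 to 4.22, against 28.5 to 120 at 15 °C. The change at 28 °C minus that at 15 °C did not pass the test (1.65, SE 0.57, limma adjusted p = 0.30).

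Feature g39602 had the largest fall. In LJ its values were 4.25, 5.69 and 3.36 on day 7, against 54.7, 122 and 103 on day 3. In LJxK they were 18.2, 7.96 and 24.1 on day 7, against 85.3, 181 and 96.2 on day 3. In K they were 4.85, 4.74 and 3.64 on day 7, against 112, 31.2 and 34.4 on day 3. In each strain no library of day 7 reached the lowest library of day 3. The pooled change was -3.47 (SE 0.28, limma adjusted p = 2.4e-06), and the change at 28 °C minus that at 15 °C was -3.87 (SE 0.37, limma adjusted p = 3.0e-07). The 15 °C libraries held 1.96 to 8.43 on day 7 and 1.51 to 6.84 on day 3, and 6 of the 9 day 7 libraries at 28 °C lay within the 15 °C range of their own strain. The LJ library at 5.69 and the LJxK libraries at 18.2 and 24.1 lay above it. Heat had raised the feature on day 1, by 1.96 (limma adjusted p = 2.7e-07), and it was again higher at 28 °C on day 28, by 1.60 (limma adjusted p = 0.018), where its 28 °C libraries held 1.95 to 35.7. The value of 1.95 was 1 read in the first LJxK library, which held 0.455 M reads, and the next lowest was 13.1.

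Feature g03325, the next largest fall, had been raised by heat on day 1. Its values in LJ were 2.01, 2.32 and 10.1 on day 7, against 22.7, 11.7 and 8.57 on day 3, and the value of 10.1 belongs to the library that stood apart. In LJxK it had 8.70, 3.73 and 4.26 on day 7, against 21.6, 21.1 and 22.7 on day 3. In K it had 2.97, 1.81 and 3.64 on day 7, against 16.8, 19.3 and 22.1 on day 3. The days did not overlap in LJxK and K, and in LJ they overlapped through that one library. The pooled change was -2.10 (SE 0.27, limma adjusted p = 0.00037), and -2.32 without the library that stood apart. On day 1 the feature was higher at 28 °C by 2.33, and on day 28 the difference of 0.56 did not pass the test (limma adjusted p = 0.72). The change at 28 °C minus that at 15 °C was -1.83 and missed the threshold (SE 0.42, limma adjusted p = 0.060).

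**Figure D1:**
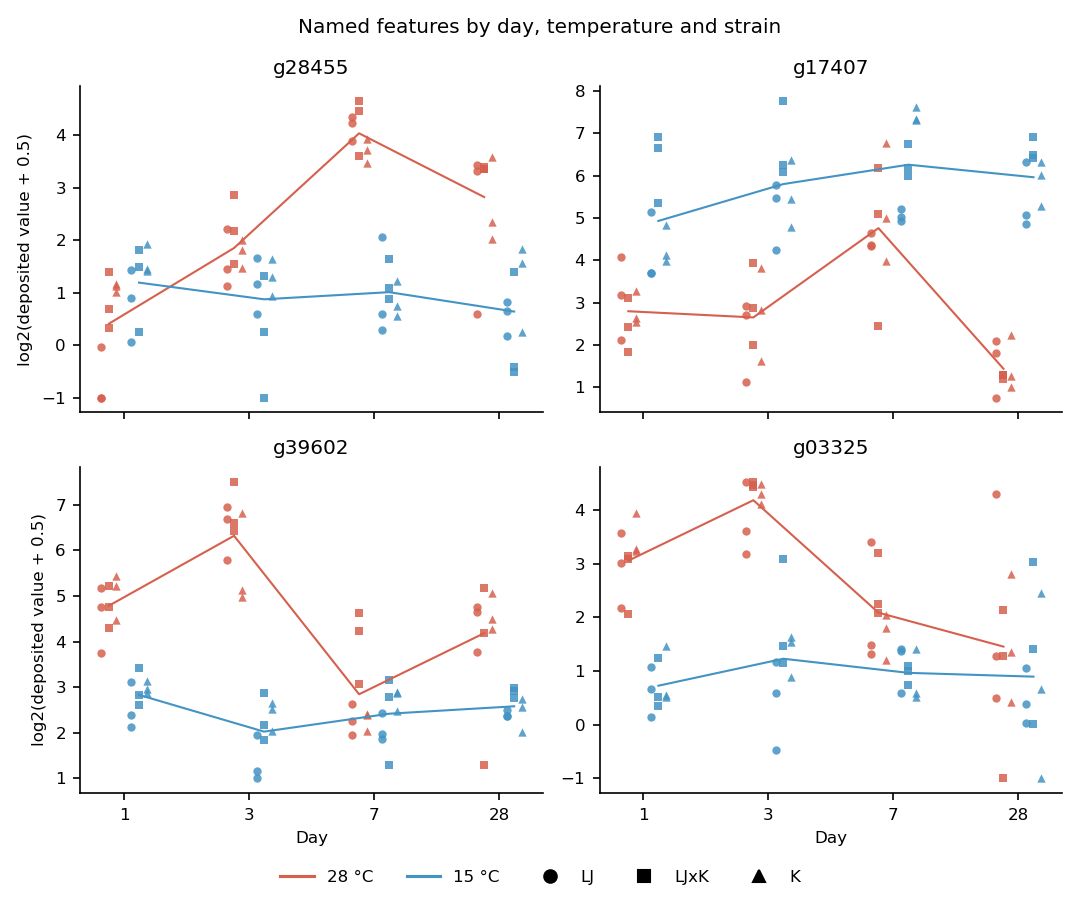
Deposited value of the 4 named features on the log2(value + 0.5) scale (vertical axis) by day (horizontal axis), 28 °C in red and 15 °C in blue. Points are libraries, their shape is the strain and lines join the means of 9 libraries. At 28 °C g28455 and g17407 stand higher on day 7 than on day 3, and g39602 and g03325 stand lower.

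The only features that the files name are 9 ribosomal RNA features, 6 of the mitochondrial and 3 of the cytoplasmic ribosome, which measure what was left after depletion of ribosomal RNA. None of the 9 passed the test between day 7 and day 3 (limma adjusted p from 0.33 to 0.94). The pooled change of the 6 mitochondrial features ran from -0.30 to -0.12. By strain it ran from -0.06 to 0.32 in LJ, from -0.27 to 0.02 in LJxK and from -1.23 to -0.21 in K. None of these 6 passed in a single strain (lowest limma adjusted p = 0.22, in K). No difference between strains passed for them either (limma F test, lowest adjusted p = 0.93). The 18S feature had 383 in the LJ library that stood apart, against 15.3 to 109 in the other 8 libraries of day 7 and 17.0 to 67.2 in the libraries of day 3. Mitochondrial ribosomal RNA took 0.123% to 0.301% of the reads on day 7 and 0.188% to 0.315% on day 3 (exact permutation test within strains, two-sided, p = 0.34). Nuclear ribosomal RNA took 0.102% to 0.362% on day 7 and 0.125% to 0.312% on day 3 (exact permutation test, p = 0.78), and the 10 most abundant features 12.1% to 27.5% on day 7 and 11.0% to 17.7% on day 3 (exact permutation test, p = 0.81). The number of features with more than 3 reads did not pass either (exact permutation test, p = 0.95). Adjusted over the family of 5 library values, each of these 4 p-values was 0.95. Labels were permuted within strain in 8000 arrangements, and the smallest p these allow is 0.00025.

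The features that rose by day 7 and those that fell differed in how heat had moved them on day 1. On that day, 17.6% of all features were higher at 28 °C than at 15 °C and 20.0% were lower, or 37.6% together (limma, pooled over strains, adjusted p under 0.05). Of the 83 features that rose by day 7, 7 (8.43%) had been raised by heat on day 1 and 39 (47.0%) had been lowered. Of the 175 that fell, 70 (40.0%) had been raised and 38 (21.7%) had been lowered. The shares of all features were not matched for level. The mean value over the 18 libraries had a median of 51.7 among the features that fell, 13.2 among those that rose and 9.47 among all. The median day 1 difference was -0.48 over the features that rose, 0.13 over those that fell and -0.03 over all features. These counts are small parts of the day 1 response: the 39 are 0.839% of the 4650 features lowered on day 1, and the 70 are 1.71% of the 4090 raised. Without the libraries beyond the gap, 56 (43.8%) of 128 features that rose had been lowered on day 1 and 14 (10.9%) raised, and 90 (44.1%) of 204 that fell had been raised and 43 (21.1%) lowered, against 21.9% lowered and 19.2% raised among all features.

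**Figure D2:**
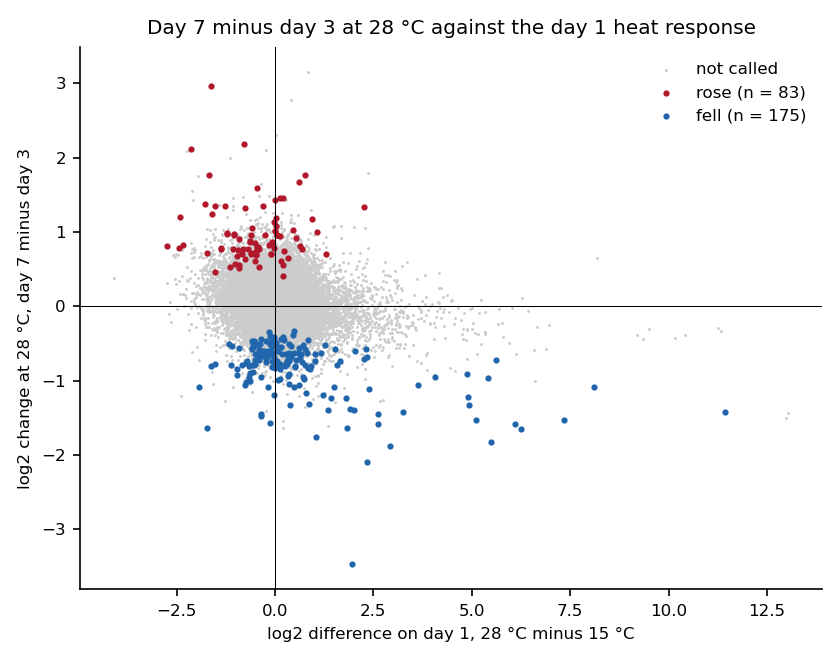
Pooled log2 change at 28 °C, day 7 minus day 3 (vertical axis), against the log2 difference between 28 °C and 15 °C on day 1 (horizontal axis), which uses other libraries. Each point is 1 of 23234 features. Of the 83 features that rose (red), 39 had been lowered by heat on day 1, and of the 175 that fell (blue), 70 had been raised.

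The same features were also set against day 28, when 4.35% of all features were higher and 3.15% lower at 28 °C, or 7.50% together. These shares were again not matched for level. Day 28 includes shallow libraries. The first LJxK library at 28 °C held 0.455 M reads, with 13256 features above 3 reads. The first K library at 15 °C held 0.276 M, with 9928 such features. Most libraries beyond the gap were also of day 28. Whether this lowered the share called on day 28 was not tested. Of the 83 that rose by day 7, 9 (10.8%) were higher at 28 °C on day 28 and 19 (22.9%) were lower. Of the 175 that fell, 34 (19.4%) were higher and 7 (4.00%) were lower. The median day 28 difference was -0.22 over the features that rose, 0.32 over those that fell and 0.03 over all features. Without the libraries beyond the gap the balance of the features that rose turned: of those 128, 20 (15.6%) were higher at 28 °C on day 28 and 15 (11.7%) were lower, with a median of -0.10. Of the 204 that then fell, 38 (18.6%) were higher and 6 (2.94%) were lower, with a median of 0.32. Across the 23234 features the day 7 minus day 3 change had a correlation of -0.18 with the heat response on day 1 and of -0.18 with that on day 28. Those values are across features, which are not independent replicates, and the 3 comparisons share no library. None of the 3 is free of libraries beyond the gap, and the correlations without those libraries are not given here.

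Features were next grouped by the day 1 response alone. The 1546 features that were at least 2-fold higher at 28 °C on day 1 had a median change of -0.10 between the days, against 0.02 over all features. Of these, 3 rose and 41 fell (2.65%, against 0.753% of all features). The values over all features beside these sets were not matched for level, and better expressed features were called more often. The 480 raised at least 4-fold had a median of -0.15 with 1 that rose and 25 that fell, and the 186 raised at least 8-fold had a median of -0.23 with none that rose and 15 that fell (8.06%). Among those 186 the estimated change was below 0 for 146 (78.5%), against 46.8% of all features. At 15 °C the median change of the 186 was 0.01. The median was -0.33 in LJ, -0.19 in LJxK and -0.19 in K, and -0.27 in LJ without the library that stood apart.

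Features lowered on day 1 moved the other way. The 1153 lowered at least 2-fold had a median change of 0.18, with 21 that rose (1.82%, against 0.357% of all features) and 7 that fell. Here too the values over all features were not matched for level. Their median was 0.14 in LJ, 0.17 in LJxK and 0.19 in K, and at 15 °C it was 0.09. The 62 lowered at least 4-fold had a median of 0.31, 5 that rose (8.06%) and none that fell. At 15 °C the median of these 62 was 0.18, against 0.05 over all features. With reads scaled to the column total, the median of the features lowered at least 2-fold was 0.05 and that of the raised features was -0.15. These sets were chosen anew under that scaling, so they need not hold the same features. Both lay below the medians on the deposited values, 0.18 and -0.10, so their size depended on the scaling. The median of all features under that scaling is not given here, so shifts relative to all features cannot be read from these values.

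**Figure D3:**
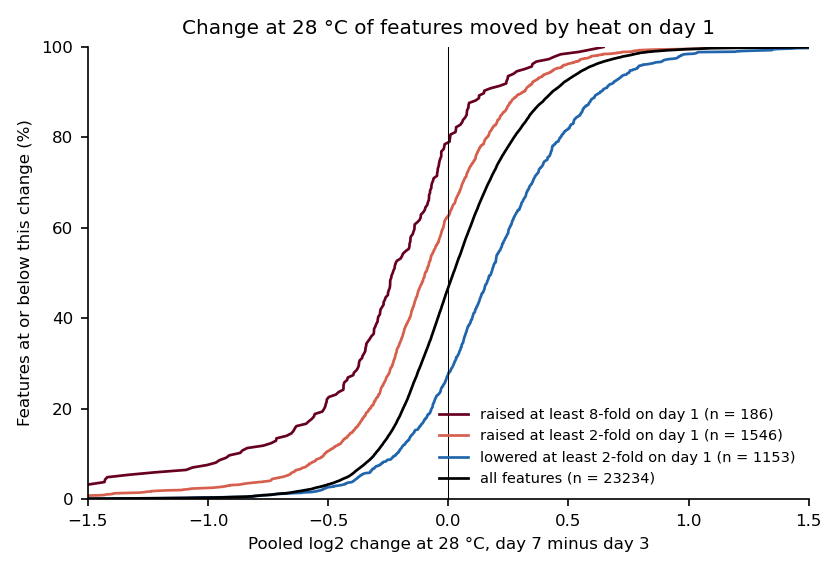
Share of features (vertical axis, percent) at or below a given pooled log2 change at 28 °C, day 7 minus day 3 (horizontal axis). The curves of the sets raised on day 1 lie left of that of all 23234 features and the curve of features lowered on day 1 lies right of it, with medians of -0.23 for the 186 raised at least 8-fold, -0.10 for the 1546 raised at least 2-fold, 0.18 for the 1153 lowered at least 2-fold and 0.02 for all.

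Sets were then formed from day 1 and day 28 together, leaving aside features called the same way on both days that changed at least 2-fold on 1 of them only. The 223 that were raised at least 2-fold on both day 1 and day 28 had a median change of -0.16. Of these, 1 rose (0.448%) and 14 fell (6.28%), against 0.357% and 0.753% of all features. For this and the following sets those shares were again not matched for level. The 1144 raised at least 2-fold on day 1 and not called higher on day 28 had a median of -0.07. Of these, 2 rose (0.175%) and 23 fell (2.01%). The 102 that were raised at least 2-fold on day 28 and not called higher on day 1 had a median of 0.03. Of these, 6 rose (5.88%) and 3 fell (2.94%). Their median was -0.13 in LJ, 0.13 in LJxK and 0.15 in K, and 0.001 in LJ without the library that stood apart. Among features lowered by heat, the 91 lowered at least 2-fold on both days had a median of 0.31 (0.15 at 15 °C). Of these, 5 rose (5.49%) and 1 fell (1.10%). The 973 lowered on day 1 and not called lower on day 28 had a median of 0.16 (0.07 at 15 °C). Of these, 14 rose (1.44%) and 5 fell (0.514%). The 119 lowered at least 2-fold on day 28 and not called lower on day 1 had a median of 0.20, with 6 that rose (5.04%) and 1 that fell (0.840%). Their median was 0.38 in LJ, -0.089 in LJxK and 0.33 in K, and it was 0.17 at 15 °C.

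In reads, these 186 features of the strongest day 1 rise weighed more than their number, with a mean of 10.8% of the reads of the 18 libraries. In LJ they held 6.95%, 9.51% and 4.58% of the reads on day 7, against 10.3%, 13.6% and 10.7% on day 3, with no overlap between the days. In LJxK they held 13.6%, 7.25% and 12.0% on day 7, against 14.8%, 7.33% and 10.9% on day 3. In K they held 8.06%, 14.1% and 11.1% on day 7, against 11.2%, 15.6% and 12.7% on day 3. The days overlapped in LJxK and K, and in LJxK the means were nearly the same, 11.0% ± 3.32 on day 7 and 11.0% ± 3.74 on day 3 (SD, n = 3 each). On day 28 the share was 3.92% ± 2.16 in LJ, 5.06% ± 2.86 in LJxK and 6.08% ± 2.31 in K (SD, n = 3 each). At 15 °C it was between 0.588% and 0.776% in each library of days 3 and 7. The 5 most abundant members held 72.9% of the reads of the set, and none of the 5 passed the test between the days, with estimated changes from -0.39 to -0.25 and limma adjusted p from 0.47 to 0.69.

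**Figure D4:**
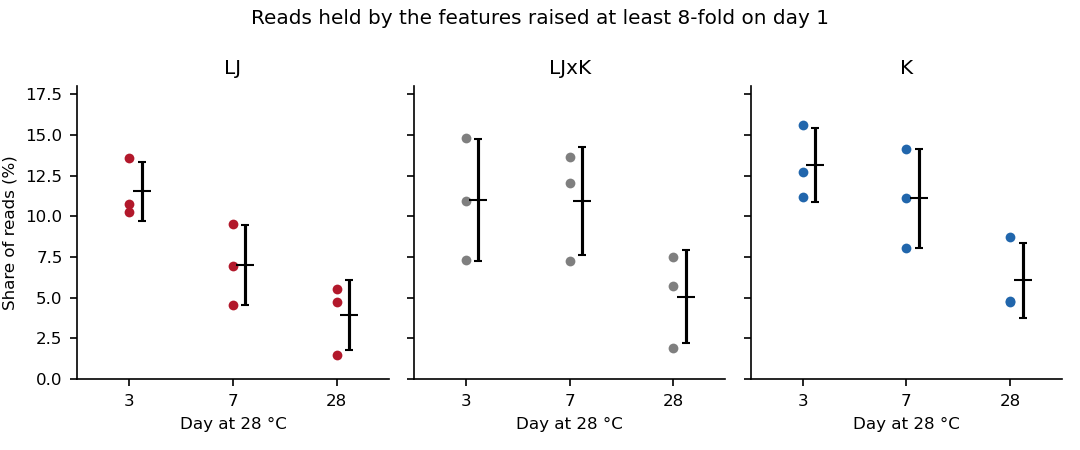
Share of the reads of the 23234 features (vertical axis, percent) held at 28 °C by the 186 with a rise of at least 8-fold on day 1. Libraries are shown by day (horizontal axis) and strain. Coloured points are libraries, and the black bar and whiskers are the mean and SD of 3 libraries. The LJ libraries of day 7 lie at 4.58% to 9.51% and those of day 3 at 10.3% to 13.6%, while the days overlap in LJxK and K.

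A score per library was also taken over all features. It is the slope of a library's log2 difference from the 15 °C libraries of days 3 and 7 on its strain's day 1 heat response, so a library as displaced as on day 1 scores near 1 and a control library near 0. In LJ the score was 0.231, 0.277 and 0.680 on day 7, against 0.320, 0.323 and 0.413 on day 3, and 0.680 belongs to the library that stood apart. That library had the highest score of the 18 but the lowest share of reads in the 186 features, 4.58%. The first LJ library of day 1 at 28 °C, which helps to set the LJ axis, was itself beyond the gap. In LJxK it was 0.459, 0.357 and 0.481 on day 7, against 0.589, 0.462 and 0.515 on day 3. In K it was 0.365, 0.450 and 0.360 on day 7, against 0.438, 0.485 and 0.461 on day 3. The 15 °C libraries of the same days scored between -0.062 and 0.075, but they set the zero of the score, so their closeness to 0 is partly built in. Those of day 28 at 15 °C, which set neither zero nor axis, scored between -0.059 and 0.093. Every library of days 3 and 7 at 28 °C scored above both ranges. Whether the 0.680 of the LJ library that stood apart reflects the heat response was not tested. Averaged over strains, the score differed by -0.038 between day 7 and day 3 (exact permutation test within strains, two-sided, p = 0.53, adjusted p = 0.95 over 5 library values). Without the 1 LJ library the difference was -0.086 (exact permutation test, p = 0.003, adjusted p = 0.015). With all 18 libraries and an axis built without the libraries beyond the gap, a setting chosen after seeing the data, it was -0.081 (exact permutation test, adjusted p = 0.0075). Whether the lower score on day 7 passed the test thus depended on how the libraries beyond the gap were treated.

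**Figure D5:**
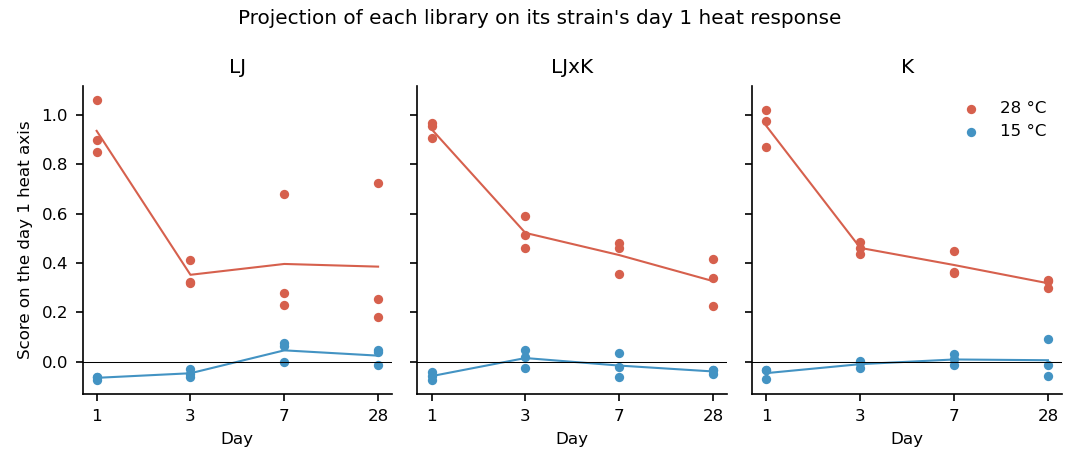
Score of each library on its strain's day 1 heat response (vertical axis, no unit, 0 for the mean of the 15 °C libraries of days 3 and 7) by day (horizontal axis), 28 °C in red and 15 °C in blue. Lines join the means of 3 libraries. At 28 °C the scores of day 7 lie from 0.231 to 0.680 and those of day 3 from 0.320 to 0.589, and the LJ library at 0.680 stands above the other LJ libraries of day 7.

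Within single strains fewer features passed. In LJ 7 features rose (0.0301% of 23234) and 27 fell (0.116%), which is 0.146% together. In LJxK 5 rose (0.0215%) and 2 fell (0.00861%), or 0.0301% together, and in K 16 rose (0.0689%) and 17 fell (0.0732%), or 0.142% together. The unadjusted p was under 0.05 for 1979 features in LJ, 994 in LJxK and 3000 in K. The lists shared 4 features between LJ and LJxK, 4 between LJ and K and 2 between LJxK and K, and 1 feature was in all 3. The 4 shared by LJ and K are 11.8% of the LJ list and 12.1% of the K list. Feature g39602 passed in each strain, with changes of -4.20 in LJ, -2.87 in LJxK and -3.35 in K (SE 0.46, limma adjusted p of 0.0011, 0.037 and 0.0050). These single-strain counts rested on single libraries. That of LJ ran from 1 without the second LJ library of day 3 to 55. That of LJxK ran from 0 to 21, the highest without the LJ library that stood apart. That of K ran from 6 without the second K library of day 3 to 182 without the first. Without the LJ library that stood apart the K count was also higher, as given in the last section, so the strains cannot be ranked by these counts.

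Few features passed any test of a difference between strains in the change, and none did with all 18 libraries weighted equally. The F test over the 3 strains called none (smallest limma adjusted p = 0.33) and at most 1 when each library was left out in turn, with 1233 at an unadjusted p under 0.05, and a quasi-likelihood fit of the reads in edgeR also called none. Pairwise, LJ minus LJxK, LJ minus K and LJxK minus K each gave none, with unadjusted p under 0.05 for 904, 1658 and 1063 features. With library weights in limma, 24 features passed the F test on the same 18 libraries, so the absence of calls depended on the fit and does not show that the strains changed alike. Across features, the change in one strain had a correlation of 0.18 with that in the other for LJ and LJxK, 0.14 for LJ and K, and 0.20 for LJxK and K, over values that share no library and again across features that are not independent replicates. Without the LJ library that stood apart the values were 0.076 for LJ and LJxK and 0.19 for LJ and K, so the order of these pairs turned on that library.

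Features called from 2 strains were then measured in the third, whose libraries had no part in the choice. This comparison was added after seeing the data, and the shares of all features beside it were not matched for level. Of the 118 features that fell in LJxK and K together, 116 (98.3%) were lower on day 7 in LJ, with a median change of -0.73 there, against 46.1% of all features. Of the 50 that fell in LJ and K, 50 were lower in LJxK (median -0.76), and of the 41 that fell in LJ and LJxK, 40 were lower in K (median -0.93). Without the library that stood apart, 108 of 118 (91.5%) were lower in LJ, 97 of 99 in LJxK and 55 of 57 in K. The falls chosen in any pair of strains thus pointed the same way in the third. Of the 114 features that rose in LJxK and K, 60 (52.6%) were higher on day 7 in LJ, close to the 53.9% of all features, with a median change of 0.01. Without the library that stood apart, 67 of the 114 (58.8%, against 50.6% of all features) were higher in LJ, with a median of 0.07. Of the 22 that rose in LJ and K, 21 were higher in LJxK (median 0.57), and of the 8 that rose in LJ and LJxK, 7 were higher in K (median 0.86). Without the library that stood apart, 50 of 61 were higher in LJxK (median 0.35) and 18 of 19 in K (median 0.84). With or without it, 50% of all features were higher in LJxK and 49.2% in K.

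Most calls, 192 of 258, were among the better expressed features. When all features were divided into 5 equal classes by their mean log2 level at 15 °C on days 1 and 28, the lowest class held 22 calls, 10 that rose and 12 that fell (0.473% of the class). The second held 25 and the third 19. The fourth held 26 that rose and 47 that fell (1.57%), and the highest held 30 that rose and 89 that fell (2.56%). The median standard error of the change was 0.29 in the lowest class and 0.12 in the highest. The median change was 0.08 in the lowest class and -0.06 in the highest. The mean deposited value over the 18 libraries had a median of 51.7 among the features that fell, 13.2 among those that rose and 9.47 among all features.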

How the data were processed

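Gill RNA was depleted of ribosomal RNA and made into libraries with a ScriptSeq kit, per the labels' protocols. The submitters' processing notes name CASAVA 1.8, Bowtie and edgeR, with no version for Bowtie and edgeR. Which transcriptome the reads were matched to is not given in the sources used here. What the authors deposited is a normalised signal, reads of a feature per effective library size, in 1 table for each strain. The deposited library table gives other values (quality and matched reads) and matched reads as a percent. These were 14.2% to 42.4% on day 7 and 11.0% to 35.2% on day 3 at 28 °C.

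Columns were tied to groups by their names, and the S number served only as a replicate name. The descriptions of the 3 LJxK samples of day 1 at 28 °C name the LJ table, and the column names were followed. Dividing by the smallest step gave whole reads for 100% of values (tolerance 0.01). A count of 3 reads corresponded to 0.222 to 1.26 deposited units in the 18 libraries, and this limit covers counting error only. Replicate pairs differed by more than sampling noise (chi-square per feature 7.83 to 233 over 18 pairs, features with at least 20 reads).

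The test was limma 3.58.1 with a trended prior on log2(value + 0.5) over the 23234 features in all 3 tables, unfiltered; folds on this scale understate changes of low features. Single strains and their F test shared the 18 libraries, the test of 28 °C against 15 °C changes used 36, and the day 1 and day 28 sets used their own 18 libraries each. Library values were tested by exact permutation within strain. edgeR 4.0.16 on the recovered reads called 217 features in the pooled comparison, 76 that rose and 141 that fell. The scripts were tested on simulated data. The comparison, lists and rules were chosen with earlier results of these data known. Named features were the 2 largest rises and falls among pooled calls with more than 3 reads in each of the 18 libraries and 1 sign in all strains, and every ribosomal RNA feature. Gene and marker lists matched 0 features.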

Additional observations from a re-analysis of the deposited data

Results flagged for a closer look

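A different change at 28 °C and at 15 °C, by a test of the difference itself, was found for 34 features (limma, 0.146% of 23234). The count ran from 2 to 126 under other settings and stayed within 1.5 times in 25 of 49 of them. The 2 features below were named for the size of their change at 28 °C, in libraries that also enter this test. Feature g28455 had a change at 28 °C minus the change at 15 °C of 2.05 on the log2 scale (limma adjusted p = 0.032), and feature g39602 one of -3.87 (limma adjusted p = 3.0e-07). Groups of 3 libraries were not tested for single outlying values.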

How the results depend on the processing

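The pooled 28 °C count of 258 stayed within 1.5 times under both other pseudocounts, both filters, TMM and DESeq2 scaling, edgeR, all 72 libraries in the fit, without the libraries beyond the gap and with 1 mean per strain and day (217 to 332). It was 107 with reads scaled to the column total and 695 with library weights, and 149 to 363 when each library was left out. With scaling to the column total the counts were 8 in LJ, 1 in LJxK, 11 in K and 2 for the difference from 15 °C; in K 7 of the 11 rose, and 1 of the 2 had a higher change under heat. With that scaling and without the libraries beyond the gap, a setting chosen after seeing the data, they were 22, 26, 121 and 22, of which 11, 15, 77 and 19 rose. Library weights gave 340, 118, 11 and 68, with 444 at 15 °C and 24 in the F test between strains. edgeR gave 17, 3 and 11 in the strains and 46 at 15 °C. All 72 libraries in the fit gave 57 in LJ, 64 in K and 13 at 15 °C. A mean value of at least 5 gave 11 in LJxK, 36 at 15 °C and 59 for the difference. Without the libraries beyond the gap LJxK had 21 and K 116, and without libraries under 1 M reads 15 °C had 44. With only the 6 libraries of a strain in the fit, LJ had 0 (edgeR on 18 libraries 17), LJxK 17 and K 54. Leaving out each library gave 1 to 55 in LJ, 0 to 21 in LJxK, 6 to 182 in K, 0 to 1 in the F test, 10 to 44 at 15 °C and 5 to 126 for the difference. The cause of these moves was not tested.

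The heat score difference of -0.038 was -0.086 without the LJ library that stood apart (exact permutation, adjusted p = 0.015) and -0.081 with an axis built without the libraries beyond the gap (adjusted p = 0.0075, chosen after seeing the data); leaving out each library gave -0.086 to -0.011. Medians of the day 1 sets were -0.15 and -0.23 (raised, 4-fold and 8-fold), -0.15 (raised, column total), 0.31 and 0.37 (lowered, 4-fold and 8-fold, the last 1 feature) and 0.051 (lowered, column total). The sets under column total scaling were chosen anew under it. At 8-fold on day 28 the medians were -0.30 (raised) and 1.07 (lowered). Same-numbered libraries of the 2 days had correlated deviations in LJ (0.15 to 0.50) but not in LJxK (-0.01 to 0.08) or K (-0.05 to 0.08). The 0.50 belongs to replicate 3, the number of the LJ library that stood apart. Correlations between libraries of unlike number were not computed, so whether the numbers pair the libraries in LJ was not tested. A replicate block gave 201 pooled calls, 177 of them among the 258, 33 in LJ, 21 of them among the 34, 6 in LJxK and 11 in K.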
